A study of Mus musculus with 9 samples.

Results

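Variation in gene expression was described among 6 alveolar rhabdomyosarcomas of the mouse, which make up 6 of the 9 samples of the series. The members were chosen by their labels, although earlier results of these data were known, and the 3 samples of normal muscle were not used. Total RNA of each tumour was hybridised to 1 Affymetrix array, and the values are MAS5 signals, a brightness in arbitrary units. The labels give a diagnosis and a number for each tumour, and no genotype, sex, age, site or treatment, nor do they state that the tumours came from separate animals, so that biological and technical spread cannot be told apart. Every gene with a symbol of its own was represented by its brightest probe set, which gave 12393 genes, and 6975 of them (56.3%) had a mean signal of at least 250 and were examined for variation. The gene just inside this limit was Sergef, with signals from 108 to 377, and the gene just outside was Clec16a, with a mean of 249.9 and signals from 34.3 to 443. Spread is given as the standard deviation (SD) of log2(signal + 16) over the 6 tumours, in which the added 16 damps the noise of dim signals. Because there was 1 group of samples, the values are descriptions, and tests were possible only for correlations of single gene pairs.

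Alveolar rhabdomyosarcoma is a soft-tissue cancer whose cells switch on much of the skeletal muscle programme without completing it. In people it is often driven by a fusion protein in which the DNA-binding part of PAX3 or PAX7 is joined to the activating part of FOXO1. In normal muscle formation MyoD and myogenin, which bind short DNA elements called E-boxes, switch on embryonic contractile proteins first, and adult fast and slow forms replace these as fibres mature. The tumours can also hold fibroblasts, vessels and immune cells, and in such bulk RNA fewer cells of a type and less RNA per cell cannot be told apart.

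All 6 arrays had the same mean signal of 500.2 after trimming 2% at each end, but their median gene signals ran from 197 in tumour 2 to 345 in tumour 1. Tumour 1 stood apart, with a mean correlation with the others of 0.528, against 0.676 to 0.756 for the other tumours (r of log2 values across genes, which are not independent replicates). Its hybridisation control cre gave a signal of 32501 and that of tumour 4 gave 26648, against 5345 to 13348 elsewhere. The ratio of 3′ to 5′ Gapdh probe sets, a sign of RNA quality, was 1.93 in tumour 4 and 6.04 to 9.39 in the others, and that of Actb was 3.35 in tumour 4 and 4.73 to 6.78 in the others. The part of these array differences in the results was not tested, and counts are therefore also given without tumour 1, or without tumours 1 and 4.

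The median gene had an SD of 0.65, which corresponds to a typical difference of 1.57-fold, and the middle of the distribution ran from 0.47 to 0.89. At the upper end, 297 genes (4.26%) had an SD of at least 1.5, and at the lower end 199 genes (2.85%) had one of at most 0.25. In 4 equal classes of mean signal, from the dimmest to the brightest, the median SD was 0.75, 0.60, 0.61 and 0.66, and the number of widely varying genes was 127, 57, 63 and 50. The dimmest class thus held the most of them, and the part of noise in dim signals was not tested. Of the 297 widely varying genes, 177 had their highest or lowest signal in tumour 1, with 84 highest and 93 lowest there. Over all 6975 genes 28.7% were highest and 29.7% lowest in tumour 1, so these counts were near the general share. Of the 297, 162 kept an SD of at least 1.5 when tumour 1 was left out. Over the same 6975 genes, 198 (2.84%) reached that SD without tumour 1 and 216 (3.10%) without tumours 1 and 4, while 333 (4.77%) did after quantile normalization. Where a widely varying gene had a second probe set with a mean of at least 250, the 2 sets often ran in parallel, although only 31 of 72 second sets reached an SD of 1.5 themselves. Their correlation was at least 0.8 for 50 of 72 such genes (69.4%, median r 0.91), against 553 of 2034 genes of any spread (27.2%, median r 0.55).

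**Figure D1:**
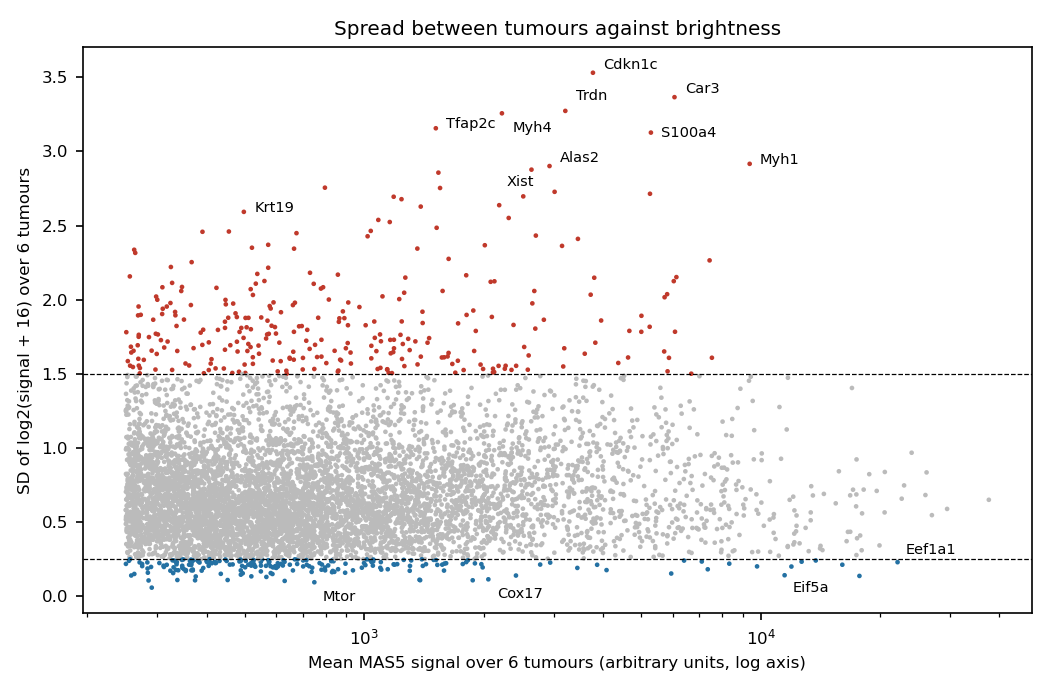
Each point is 1 of 6975 genes, with its mean signal over 6 tumours on a log axis and the SD of log2(signal + 16) between tumours. Dashed lines mark SDs of 1.5 and 0.25, and the highest SD, 3.53, was that of Cdkn1c.

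The tumours differed pairwise to very different degrees. Tumours 5 and 6 were most alike, with r = 0.856 across genes and 163 genes (2.34%) at least 4-fold apart. Tumours 1 and 2 were least alike, with r = 0.388 and 1742 genes that far apart. The first principal component held 49.5% of the variance and set tumour 1 against tumour 2, and the second held 19.7% and set tumours 1, 2 and 3 against tumours 4, 5 and 6. Without tumour 1 the first component held 46.2% and was led by tumour 2 on one side and tumour 4 on the other. For 255 of the 297 widely varying genes the highest or lowest signal lay in tumour 1 or tumour 2. These tumours held many extremes of all examined genes too. The highest signal lay in tumour 1 for 28.7% of them and in tumour 2 for 17.6%, and the lowest for 29.7% and 31.3%.

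The gene that varied most was Cdkn1c, which encodes the cell cycle inhibitor p57 and is imprinted, with an SD of 3.53. Its signal was 9085, 3158, 46.8, 21.3, 3646 and 6676 in tumours 1 to 6. It was therefore bright in 4 tumours and near background in tumours 3 and 4, and its SD without tumour 1 was 3.57. Of the 20 genes with the largest SDs, 5 belong to skeletal muscle (Car3, Trdn, Myh4, Myh1 and Myh2), 4 to epithelia or ectoderm (Tfap2c, Dsp, Krt6b and Krt19) and 2 to red cells (Alas2 and Hbb-b2). The other 9 were Cdkn1c, the calcium-binding protein gene S100a4, the serpin gene Serpinb9g, the membrane protein gene Tm4sf1, Xist, the secretogranin gene Scg2, the ferritin receptor gene Scara5, the growth factor receptor gene Fgfr4 and the amino acid transporter gene Slc38a4. Their SDs ran from 2.59 to 3.53, and 16 of them kept an SD of at least 1.5 without tumour 1. The 4 that did not included Trdn, Myh4 and Myh2, whose SDs fell from 3.27, 3.26 and 2.75 to 1.24, 1.43 and 1.17, and Tm4sf1, which fell from 2.71 to 1.12.

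**Figure D2:**
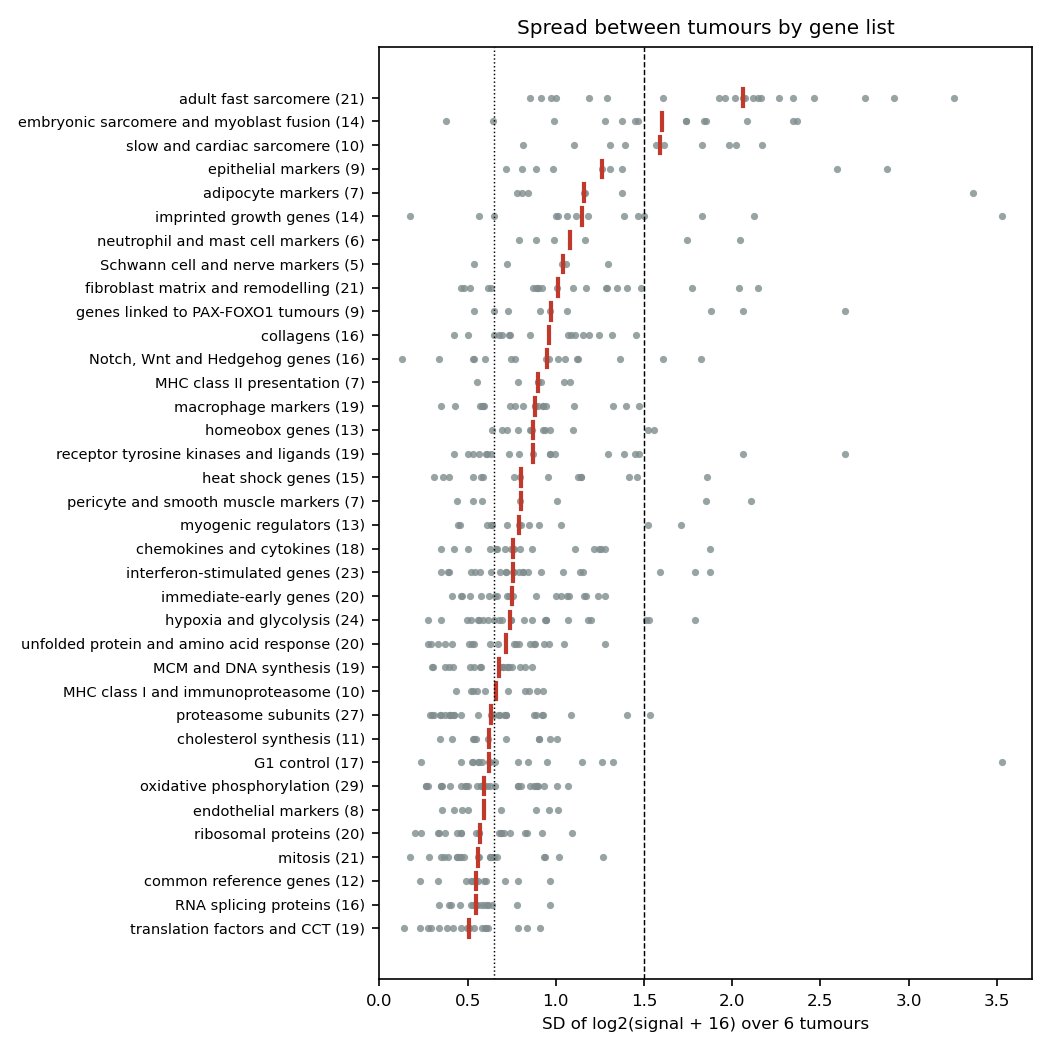
Each point is a gene of the named list with a mean signal of at least 250, placed by its SD between the 6 tumours, and red bars are list medians, with the number of genes in brackets. The dotted line is the median of all genes, 0.65, and the dashed line is the limit of 1.5; muscle lists lie to the right and lists of translation and splicing to the left.

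Among all pairs of the 297 genes, 4474 of 43956 (10.2%) had a correlation of at least 0.8 over the 6 tumours, against 6.50% of all pairs of the 6975 genes. The share among the widely varying genes was 6.74% by Spearman's rho and 22.1% under median centring, so its size depended on the measure. Average-linkage clustering at a mean r of 0.7 placed 206 of the 297 in 6 groups of at least 20 genes, numbered here by size, and left 91 outside them. Group 1 held genes low in tumour 1, groups 2 and 3 genes low or high in both tumours 2 and 3, group 4 genes high in tumour 1, group 5 contractile and other genes high in tumours 1 and 2, and group 6 genes low in both tumours 1 and 6. The groups were made from these same signals, so their patterns are no independent finding. Second probe sets took no part in the clustering, and each was correlated with the mean of the other genes of its group. This r was at least 0.8 for 8 of 19 genes in group 1 and 10 of 14 in group 2. It was so for 4 of 5 in group 3, 3 of 4 in group 4, 4 of 5 in group 5 and 5 of 8 in group 6. Second probe sets thus followed the rest of their group least often in group 1.

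**Figure D3:**
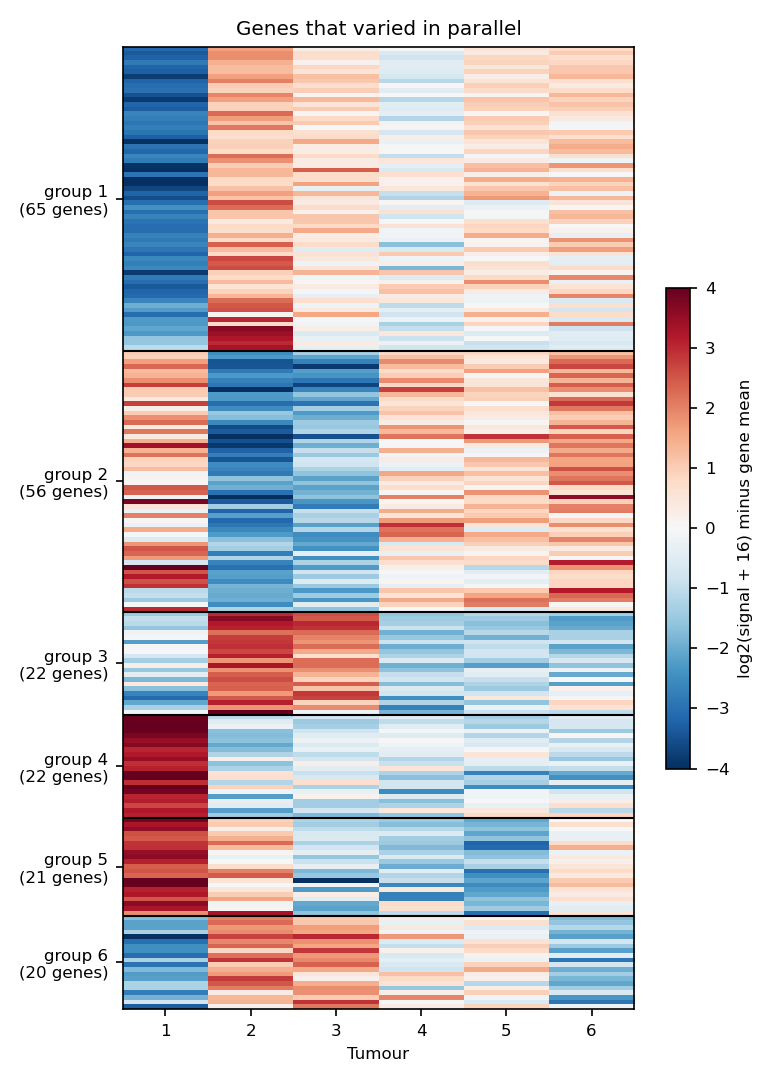
Rows are the 206 genes of the 6 groups and columns the 6 tumours, and colours give log2(signal + 16) minus the gene's mean, from blue (low) to red (high), clipped at 4 units. Groups 1 and 4 are set by tumour 1, while groups 2 and 3 show tumours 2 and 3 moving together against the rest.

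Markers of the muscle lineage had different signals in the 6 tumours, and no detection call was used. In tumour 5 Des, Myh3 and Myog lay below the median gene signal of 265, while Myod1, Cdh15 and Chrna1 lay above it. In tumour 4 Des (132) and Myh3 (272) were also below the median gene signal, there 308. In tumour 3 Des (253) was below its median of 270.0. Myod1, the myogenic determination factor, had signals of 773, 571, 282, 609, 373 and 1205 in tumours 1 to 6. Myog, which encodes myogenin, gave 1169.8, 1017, 565, 449, 229 and 835. Both were above 200 in every tumour, with Myod1 highest in tumour 6 and Myog highest in tumour 1. The cadherin gene Cdh15, a marker of myoblasts, was the steadiest marker, from 419 to 838 (SD 0.38), and the acetylcholine receptor gene Chrna1 ran from 735 to 4080.4. Des, the muscle intermediate filament desmin, reached 4036 in tumour 1 and lay between 91.5 and 371 in the others. The embryonic myosin gene Myh3 ran from 166 to 4681 with a median of 777.

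Regulators of the muscle programme had a median spread near that of all genes, with a few wide exceptions. Of 13 myogenic regulators above the signal limit 2, Myf5 and Mef2c, had an SD of at least 1.5, beside 4.26% of all genes, and the list median of 0.79 was close to the 0.65 of all genes. Myf5, an early determination factor, had signals of 146, 604, 80.6, 2155, 121 and 555. It was highest in tumour 4 and low in tumours 1, 3 and 5, and its SD rose from 1.71 to 1.82 without tumour 1. Mef2c, a partner of the myogenic factors, ran from 331 in tumour 5 to 5576 in tumour 2, with a median of 1060.0. Pax3 and Pax7, whose human counterparts take part in the fusions, had signals of at most 189 and 241 and were below the limit. Which part of a transcript their probe sets read was not examined.

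Contractile genes had the highest median SDs among the lists with at least 10 genes above the limit. Of 21 adult fast-fibre genes 15 had an SD of at least 1.5 (median 2.06), beside 4.26% of all genes. So did 7 of 14 genes of the embryonic sarcomere and myoblast fusion (median 1.60) and 6 of 10 slow-fibre and cardiac genes (median 1.59). The adult fast genes were highest in tumour 1, where 18 of the 21 peaked, followed by tumours 2 and 6, and the embryonic genes were highest in tumour 2, where 9 of 14 peaked, and lowest in tumour 5. These places held under quantile normalization and median centring as well. Over all examined genes 28.7% peaked in tumour 1 and 17.6% in tumour 2. Without tumour 1 the counts were 7 of 21, 8 of 14 and 4 of 10, so the spread of the adult genes rested partly on tumour 1 and that of the embryonic genes did not. Within the adult fast list 51.4% of gene pairs reached a correlation of 0.8, and within the embryonic list 37.4%, beside 6.50% over all pairs.

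Single contractile genes followed these lines. Myh1, a fast myosin heavy chain, had signals of 42066, 7619, 4449, 377, 152 and 1582, so that tumours 1 to 3 were all brighter than tumours 4 to 6. Myh4, another fast myosin, gave 12817 in tumour 1 and 16.4 to 335 in the other 5. Mymk, the fusion factor myomaker, gave 902, 1872, 475, 35.3, 96.0 and 1341, with tumours 4 and 5 far below the rest. Myosin probe sets can bind transcripts of several family members, so values of single myosins are less certain. Casq2, which encodes the slow and cardiac calsequestrin, was highest in tumour 2 (3218) and lowest in tumour 5 (92.3). Across the 3 lists tumour 5 most often had the lowest signal, for 9 of 14 embryonic, 11 of 21 fast and 6 of 10 slow-fibre genes. Over all examined genes tumour 5 was lowest for 7.08%.

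Group 5 gathered 21 genes, 9 of them from the fast list, with mean deviations of 3.15, 0.95, -1.23, -1.16, -2.07 and 0.37 log2 units in tumours 1 to 6. Closest to its mean were Tnnt3 (fast troponin T), Ttn (titin), Cryab (a small heat shock protein of muscle), Myot (myotilin) and Tnnc2 (fast troponin C). Tnnt3 ran from 128 in tumour 5 to 8574 in tumour 1 with a median of 409, and Ttn from 657 to 23346 with a median of 2349.8. Acta1, the skeletal muscle actin, gave 24742, 7811, 1885, 945, 359.6 and 8819.7, high in tumours 1, 2 and 6 and low in tumour 5. Of the 21 genes 10 kept an SD of at least 1.5 without tumour 1, and the median correlation of group members with each other fell only from 0.87 to 0.78. Group 4 held 22 genes that were all highest in tumour 1, and 5 of them (Myl2, Ckm, Myh2, Myh4 and Pvalb) were on a muscle list. The others were of mixed function, from the muscle genes Cox6a2 and Trdn to the lipid transfer protein gene Pltp and the salt transporter gene Slc12a3. Of the 22, 0 kept that SD without tumour 1, and their median correlation fell from 0.85 to -0.05, so the group rested on tumour 1. The summed signal of all 24 adult fast genes on the array was 202791 in tumour 1 and 13037 to 51919.6 in the others, and whether muscle fibres beside the tumour cells contributed was not tested.

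Promoters of group 5 are shown because its genes moved together over the tumours and because E-boxes are the elements that myogenic factors bind. Of the 5 shown, 4 were picked because they hold CAGCTG, a form of the E-box, and that of Tnnc2 as one that does not hold CAGCTG. Other E-box forms, such as CACCTG, which the Tnnc2 window holds, were not searched for. They are the 250 bases before the annotated start of each gene, from RefSeq (GRCm38.p6), written 5′ to 3′ on the gene's strand. Capitals mark matches on either strand to CAGCTG (an E-box core), CATTCC (the MCAT core found in muscle promoters, GGAATG on the other strand) and TATAAA (the TATA box, TTTATA on the other strand). The Acta1 promoter lies at chr8:123894776-123895025 (minus strand), that of Myl1, an alkali light chain of myosin, at chr1:66945057-66945306 (minus strand), that of Mylpf, the fast regulatory light chain, at chr7:127211358-127211607 (plus strand), that of Des at chr1:75360042-75360291 (plus strand), and that of Tnnc2 at chr2:164779735-164779984 (minus strand).
Acta1: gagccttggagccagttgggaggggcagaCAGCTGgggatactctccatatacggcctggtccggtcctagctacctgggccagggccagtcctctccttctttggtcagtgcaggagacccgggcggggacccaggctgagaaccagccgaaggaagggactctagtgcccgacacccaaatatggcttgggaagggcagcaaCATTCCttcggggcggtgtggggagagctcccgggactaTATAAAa
Myl1: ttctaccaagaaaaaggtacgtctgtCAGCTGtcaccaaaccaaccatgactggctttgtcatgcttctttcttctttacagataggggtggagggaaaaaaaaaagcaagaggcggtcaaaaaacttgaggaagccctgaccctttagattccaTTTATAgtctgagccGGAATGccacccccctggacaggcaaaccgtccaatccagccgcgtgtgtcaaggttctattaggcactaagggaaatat
Mylpf: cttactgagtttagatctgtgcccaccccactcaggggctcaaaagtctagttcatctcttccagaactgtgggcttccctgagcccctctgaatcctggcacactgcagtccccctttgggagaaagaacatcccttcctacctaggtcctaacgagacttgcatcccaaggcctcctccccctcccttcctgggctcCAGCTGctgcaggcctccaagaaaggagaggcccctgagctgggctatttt
Des: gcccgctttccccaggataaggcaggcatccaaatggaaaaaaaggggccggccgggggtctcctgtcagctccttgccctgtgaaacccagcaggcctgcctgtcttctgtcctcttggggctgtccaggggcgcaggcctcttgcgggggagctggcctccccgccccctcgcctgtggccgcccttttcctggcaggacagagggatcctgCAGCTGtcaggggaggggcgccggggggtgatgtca
Tnnc2: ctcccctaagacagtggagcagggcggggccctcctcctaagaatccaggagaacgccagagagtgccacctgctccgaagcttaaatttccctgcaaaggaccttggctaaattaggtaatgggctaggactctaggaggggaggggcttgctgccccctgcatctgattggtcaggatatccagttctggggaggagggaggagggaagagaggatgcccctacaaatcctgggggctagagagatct
Acta1 thus holds all 3 marked sequences in this window, Myl1 also all 3, Mylpf and Des CAGCTG alone, and Tnnc2 none of the 3. Tnnc2 had signals of 5027, 2437, 599, 335, 287 and 724 in tumours 1 to 6, with Myl1 at 6076, 3922, 323, 287, 73.4 and 1396 and Mylpf at 6399, 6885, 426, 555, 217 and 1618 in tumours 1 to 6.

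Of the 15 group 5 genes with a promoter sequence, 8 (53.3%) held CAGCTG in these 250 bases, namely Acta1, Myl1, Mylpf, Des, Atp2a1 (the fast calcium pump), Mb (myoglobin), Pygm (muscle glycogen phosphorylase) and Mybph. Over all 27025 genes with such a sequence the share was 14.7%, and over the examined genes with a promoter 13.5%. CATTCC and TATAAA were each found in 4 of the 15 (26.7%), against 14.4% and 14.3% of all genes. These matches are descriptions of letters in a window and were not tested, since the group was chosen from the data.

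Tumours 2 and 3 shared low signals of a second set of genes, which cut across the muscle pattern. In group 2 the lowest 2 of the 6 signals lay in tumours 2 and 3 for all 56 genes, with mean deviations of 1.29, -2.59, -1.84, 0.85, 0.70 and 1.58. This set did not rest on tumour 1, since 44 of the 56 kept an SD of at least 1.5 without it and the median correlation among them rose from 0.82 to 0.90. Closest to the mean were Osgin1 (an oxidative stress gene), Cdk18, the calcium channel gene Ryr3, the desmosome gene Dsp and the scaffold gene Homer2. Ryr3 gave 47.9 and 90.3 in tumours 2 and 3 and 884 to 3359.7 in the other 4.
 
Group 2 included Fgfr4 and the AP-2 genes Tfap2a and Tfap2c. Fgfr4, a receptor tyrosine kinase and known target of PAX3-FOXO1, had signals of 7852, 37.0, 179.6, 703, 989 and 3369 in tumours 1 to 6. It was thus lowest in tumours 2 and 3 and highest in tumours 1 and 6. Its other probe sets were dimmer, and as the mean over all its probe sets its SD was 1.23 and not 2.64. Tfap2c, which encodes the transcription factor AP-2 gamma, gave 637, 8.86, 27.4, 2186, 3647 and 2580.1, and its 3 probe sets had SDs of 2.07 to 3.16. Tfap2a, for AP-2 alpha, ran from 84.8 in tumour 2 to 2463 in tumour 6. Dsp gave 4935, 77.3, 55.1, 2411, 2009.9 and 6349, and the keratin gene Krt19 gave 6.93 and 8.38 in tumours 2 and 3 and 165 to 1309 elsewhere. Pipox, a further gene linked to fusion-positive tumours, and Meg3, an imprinted long non-coding RNA gene, were also lowest in tumours 2 and 3. The AP-2 core GCCNNNGGC was found in 23.7% of the 38 group 2 promoters, close to the 24.2% of examined genes.

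Group 2 also held the red cell genes Alas2, Slc4a1 and Hbb-b2. Alas2, the enzyme of haem synthesis in red cell precursors, had signals of at most 291 in tumours 2 and 3 and of 832 to 11099 in the other 4, and the beta globin gene Hbb-b2 gave 659, 1.76, 37.6, 2166, 721 and 1186. On these probe sets both were lowest in tumours 2 and 3. The other Hbb-b2 probe set gave 517, 7.93, 230.1, 591, 14.7 and 32.4, in which tumours 5 and 6 were low and tumour 3 was not, so the globin pattern is uncertain. Of 5 red cell markers on the array 2, Alas2 and Slc4a1, were above the limit, and all 5 summed to 139 in tumour 2 and 825 in tumour 3, against 1108 to 13519 in the others. That list does not hold Hbb-b2. Its 3 dimmer markers were each lowest in tumour 2, where Klf1 gave 47.2, Hba-a1 9.71 and Hemgn 14.9. They did not follow in tumour 3, since Klf1 was highest there (287) and Hba-a1 (147) and Hemgn (65.6) were second highest. The part of blood or of red cell precursors in the other genes of the group was not tested.

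A further group had the opposite pattern. Group 3 held 22 genes, 3 of them (Dcn, Bgn and Thbs2) from the fibroblast matrix list and none a collagen, and 21 had their highest 2 signals in tumours 2 and 3, with mean deviations of -1.08, 2.69, 1.89, -1.42, -1.05 and -1.03. Without tumour 1, 19 of the 22 kept their wide spread and the median correlation rose from 0.84 to 0.91. Gdnf, a growth factor for neurons, had signals of 22.7, 820.3, 617, 20.7, 31.3 and 24.5. It was thus well above background only in tumours 2 and 3. Dcn, the small proteoglycan decorin, gave 1519, 12200.2, 7561, 399, 781 and 344, and Bgn, the related biglycan, gave 3599.5, 13763, 14883, 811, 1186 and 585. The group also held Cpe (a prohormone-processing enzyme), Inhba (an activin subunit), Sfrp2 (a Wnt-binding protein) and Thbs2 (a thrombospondin). Tagln, a smooth muscle marker in the same group, was bright in tumour 2 alone, with 3851 there and 45.7 to 194 elsewhere.

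**Figure D4:**
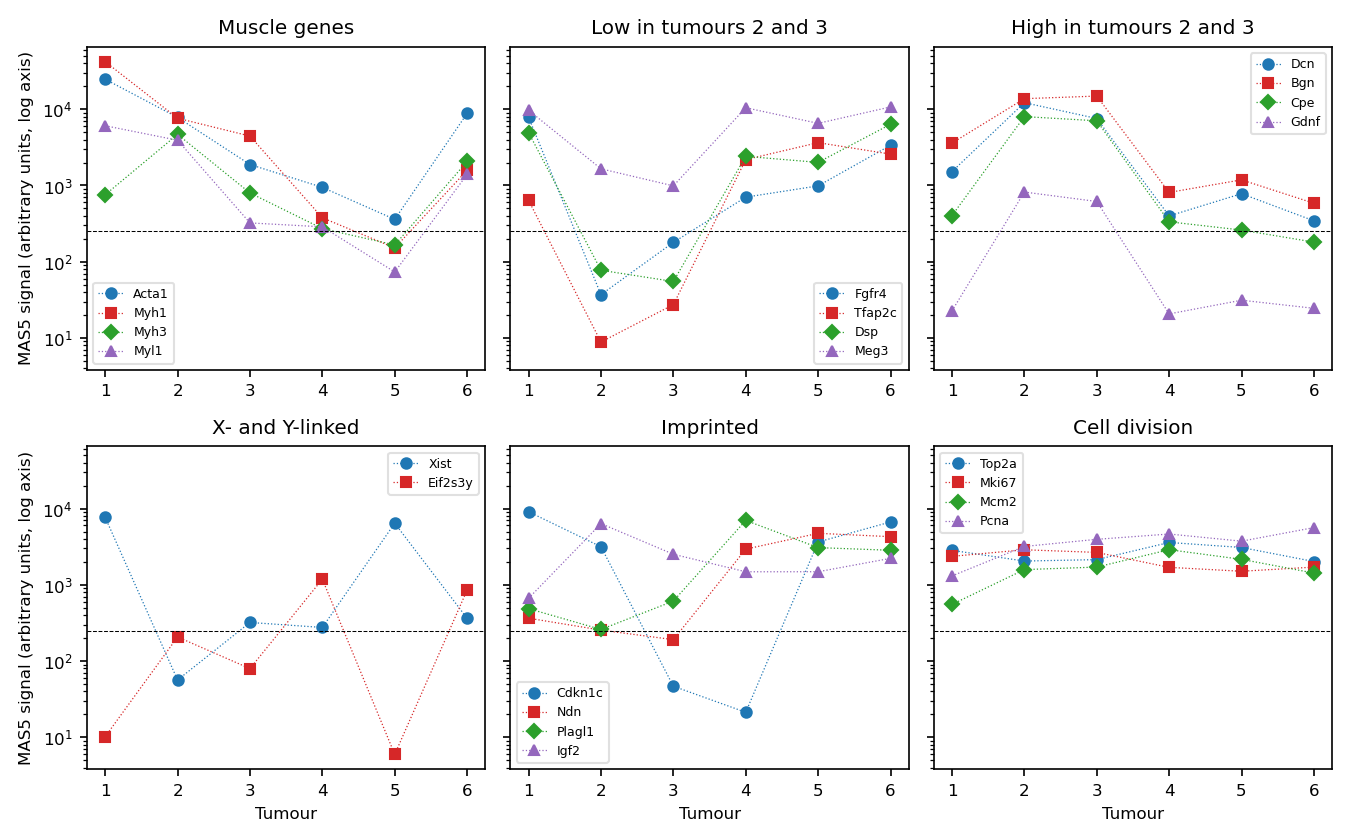
MAS5 signals of selected genes in tumours 1 to 6 on a log axis, with the limit of 250 on the mean signal as a dashed line; dotted lines join the points of a gene to guide the eye and imply no order. Contractile genes peak in tumours 1 or 2, Fgfr4, Tfap2c, Dsp and Meg3 dip in tumours 2 and 3 where Dcn, Bgn, Cpe and Gdnf peak, and Top2a stays nearly level.

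Markers of fibroblasts and their matrix as a whole were also highest in tumours 2 and 3, while the order of the other 4 tumours differed from that of group 3. Of 21 fibroblast and remodelling genes 3 (Dcn, Bgn and Thbs2) had an SD of at least 1.5, or 5 without tumour 1, and the median was 1.01. Over all genes the shares were 4.26% and 2.84%. The summed signal of all 22 on the array was 101438 in tumour 2 and 70000.2 in tumour 3, against 23643 to 32694 in the others. Of 16 collagen genes 0 reached an SD of 1.5 (1 without tumour 1), which is near the general share. Of the 16, 8 were highest in tumour 2, beside 17.6% of all genes. The list median was highest in tumour 2 and lowest in tumour 6 under all 3 scalings. Col1a2, a chain of type I collagen, gave 9062, 21069, 18012, 3006, 2145 and 2728. The part of fibroblast content in group 3 was not tested.

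Group 6 joined 20 genes that were bright in tumours 2 and 3 and dim in tumours 1 and 6. In 18 of them the lowest 2 signals lay in tumours 1 and 6, and in 14 the highest 2 lay in tumours 2 and 3. Closest to its mean were Gpx8 (a peroxidase of the endoplasmic reticulum), Igfbp3 (an insulin-like growth factor binding protein), Pfn2 (a profilin), Nudt4 and S100a4. S100a4 had signals of 37.3, 10808, 13613, 5510.1, 1367 and 356. Of the 20 genes 11 kept their wide spread without tumour 1, and the median correlation changed from 0.84 to 0.80.

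Group 1 was the largest, with 65 genes of mixed function that were all lowest in tumour 1, at a mean of -2.99 log2 units, and it depended on that array. Only 6 of the 65 kept an SD of at least 1.5 without tumour 1, and the median correlation fell from 0.87 to 0.48. Its closest members were the endosomal GTPase gene Rab5a, Fam76b, the kinase gene Cdk7 of the general transcription machinery, the polarity gene Lin7c and Lrrfip1. Rab5a had a signal of 116 in tumour 1 and 1102 to 3618 in the others. Pdgfra, a receptor tyrosine kinase known as a target of the fusion protein, also fell in this group, with 48.1 in tumour 1 and 751 to 3308 in the others, and its second probe set varied little (128 to 352, SD 0.60).

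Among genes linked to PAX-FOXO1 tumours, receptors and growth factors varied unevenly. Of 9 linked genes above the limit 3 (Fgfr4, Pdgfra and Pipox) had an SD of at least 1.5, or 2 without tumour 1. Of 19 receptor tyrosine kinases and ligands 2 did, or 1 without tumour 1. Over all genes the shares were 4.26% and 2.84%. Igf2, a fetal growth factor, had signals of 666, 6350.2, 2518, 1483, 1485 and 2224, highest in tumour 2 and lowest in tumour 1. The cell adhesion gene Ncam1 ran only from 1333 to 3408 (SD 0.54). Kitl, the ligand of the receptor Kit, and Pdgfc, a platelet-derived growth factor, had SDs of 1.47 and 1.45. Of 16 Notch, Wnt and Hedgehog genes Sfrp2 and Dkk2, both secreted Wnt antagonists, reached 1.5, while Notch3 was among the steadiest genes measured.

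Imprinted genes were spread over several patterns. Of 14 imprinted growth genes 4 had an SD of at least 1.5, or 5 without tumour 1, with a median of 1.15. Over all genes the shares were 4.26% and 2.84%. Ndn, which encodes necdin, had signals of 365, 255, 191, 2939, 4739 and 4282, and Plagl1, a zinc finger regulator, gave 487, 259.8, 612, 6994, 3076 and 2839.9. Both separated tumours 1 to 3 from tumours 4 to 6 without overlap, as did Peg3, Mest and Magel2, whose SDs were 1.00, 1.18 and 1.11. How many of all examined genes split the tumours in this way was not counted. Cdkn1c did not follow them, being dimmest in tumours 3 and 4. Igf2r, in contrast, was nearly level, at 514 to 733 (SD 0.17).

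The 2 sex-linked genes above the limit had opposite extremes. Xist, the RNA of the inactive X chromosome, had signals of 7654, 56.5, 321, 276, 6428 and 364, and the Y-linked Eif2s3y gave 10.2, 207, 79.7, 1186, 5.97 and 854. Xist was thus bright in tumours 1 and 5, where Eif2s3y was dimmest. The second brightest Xist probe set gave 1795 and 3775 in tumours 1 and 5 and at most 111 in the others. Eif2s3y in tumours 2 and 3 was below 250. The labels give no sex.

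Immune cell markers varied moderately. Of 19 macrophage markers 0 had an SD of at least 1.5 (1 without tumour 1). Over all genes the share was 4.26%, so a count of 0 in a list of this size is near it. The list median was 0.88, beside 0.65 for all genes. Csf1r, the receptor for the macrophage growth factor, ran from 4091 in tumour 6 to 26581 in tumour 1 with a median of 8601. Tumour 6 had the lowest signal for 11 of the 19, beside 11.3% of all examined genes. The summed signal of all 22 on the array was 24373 in tumour 6 against 35636 to 68897 elsewhere. Under median centring, however, tumour 1 had the lowest list median. Of 7 genes of MHC class II presentation 0 reached an SD of 1.5, again near the general share. Tumour 6 was lowest for 5 of the 7 under the deposited scaling, beside 11.3% of all examined genes, and lowest in list median under all 3 scalings. H2-Aa, a class II chain, gave 2159.7 in tumour 6 and 8713 to 12415 in the other 5.

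Of 6 neutrophil and mast cell markers above the limit 2, S100a8 and S100a9, had an SD of at least 1.5, beside 4.26% of all genes. These 2 differed in pattern from the rest of the list. S100a8, a subunit of the calprotectin dimer of neutrophils, had signals of 152, 122, 234, 3396, 1511 and 2146, and its partner S100a9 gave 166, 81.6, 53.2, 2093, 250.2 and 330.4. Both were thus brightest in tumour 4 and above tumours 1 to 3 in each of tumours 4, 5 and 6. The chemokine gene Cxcl2, which attracts neutrophils, gave 155, 117, 153, 2345, 2015 and 557 and was ordered alike between those 2 sets of tumours. The list median was instead highest in tumour 1 and lowest in tumour 2 under all 3 scalings. Of the 6 markers 3 peaked in tumour 1, beside 28.7% of all examined genes. Among these 3 were Ngp and Mpo of neutrophil granules, with 749 and 619 in tumour 1. Of 18 T and NK cell markers on the array only 2, Gzmb and Thy1, passed the signal limit, and of 8 B and plasma cell markers also 2.

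Interferon-stimulated genes had a median SD of 0.76, and 3 of 23 reached 1.5, or 1 without tumour 1. Over all genes the shares were 4.26% and 2.84%. Ifit2 and Ifit3, antiviral proteins induced by interferon, had SDs of 1.88 and 1.79, and Gbp3, a guanylate-binding protein, gave 302, 2060.2, 2052, 285, 4572 and 1055. The list median was highest in tumour 5 and lowest in tumour 4 under all 3 scalings. Of 24 genes of hypoxia and glycolysis 3 reached 1.5 (2 without tumour 1): Stc1, a secreted glycoprotein, and the glucose transporter genes Slc2a1 and Slc2a3. Slc2a1 gave 3707, 834, 296, 4767, 1189.7 and 3308. Tumour 6 had the highest and tumour 3 the lowest list median under all 3 scalings, with 11 of 24 genes highest in tumour 6 and 12 of 24 lowest in tumour 3. Over all examined genes 14.1% were highest in tumour 6 and 9.05% lowest in tumour 3.

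Lists of cell division and of basic machinery had median SDs close to that of all genes, 0.65. Of 21 mitosis genes, 19 genes of the MCM complex and DNA synthesis, 29 of oxidative phosphorylation, 20 ribosomal protein genes, 19 translation factor and chaperonin genes and 16 splicing genes, 0 had an SD of at least 1.5, with or without tumour 1, against 4.26% of all genes. With lists of this size a count of 0 in each is near the general share. Their median SDs were 0.56, 0.68, 0.59, 0.57, 0.51 and 0.55. Of 27 proteasome genes 1, Psmc4, reached 1.5 (0 without tumour 1), with a median of 0.63. Top2a, a topoisomerase of dividing cells, ran from 2022 to 3593 with a median of 2487, and Cdk1, the mitotic kinase, from 1088 to 1502 (SD 0.17). The mitosis list was not wholly level, since Cdc20, an activator of the anaphase-promoting complex, gave 28360.3 in tumour 1 and 2358 to 8725 elsewhere. The full order of the tumours in the mitosis and DNA synthesis lists changed with the scaling, so no full order is given. Under all 3 scalings the mitosis list median was highest in tumour 3 and that of DNA synthesis lowest in tumour 1. Of 17 G1 regulators 1, Cdkn1c, reached 1.5, with a median of 0.62, and Ccnd1 and Ccnd2, both D-type cyclins, had SDs of 1.26 and 1.32, and Ccnd1 ran from 1801 in tumour 1 to 16968 in tumour 2. Among 12 genes often used as references the SDs ran up to 0.97 for Tfrc, the transferrin receptor, which gave 565 to 4383. Hprt and Actb had SDs of 0.71 and 0.61, and Eef1a1 had 0.23.

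The steadiest genes were of several kinds. Bloc1s4, a subunit of a complex for lysosome-related organelles, had signals of 269.7 to 303 (SD 0.06), and Mtor, the growth-controlling kinase, 682 to 812 (SD 0.09). The next were Pdcd6ip (the ESCRT partner ALIX), Akip1, Ltn1 (a ubiquitin ligase of stalled ribosomes), Pip5k1a (a lipid kinase), Sfxn1 (a mitochondrial serine carrier), Cab39l, Dhx57, Csnk2a2 (a catalytic subunit of casein kinase), Cox17 (a copper chaperone) and Notch3, with SDs of 0.10 to 0.13. How many of these stayed steady depended on the scaling and the probe set. All 12 kept an SD of at most 0.25 after quantile normalization but only 5 under median centring, and 5 of the 10 still above the limit did as the mean over all probe sets of a gene. Mtor had 0.43 by that mean and Notch3 also 0.43. With 6 arrays a low SD is itself uncertain.

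Uniformly bright genes were those in the top 5% of gene signals on every array whose highest signal was at most 2 times the lowest. Of 12393 genes 216 were in the top 5% on every array, and 51 of these (0.412% of all) were that even. The 12 brightest were Eef1a1 (a translation elongation factor), Actg1 (cytoplasmic actin), Hspa8 (a constitutive chaperone), Akr1a1 (an aldehyde reductase), Pebp1 (an inhibitor of RAF kinase), Rps4x, Rps7, C1qbp, Pabpc1 (the poly-A binding protein), Rpl7a, Rps26 and Npc2 (a lysosomal cholesterol carrier). Eef1a1 ran from 16651 in tumour 5 to 26178 in tumour 1 with a median of 22925. Akr1a1 was the most even of the 12, from 15754 to 19596 (1.24-fold), but its second probe set gave 3146 in tumour 1 and 7614 to 9804 elsewhere. Some ribosomal genes were bright but not even: Rpl13a gave 54426 in tumour 1 and 11487 to 16478 in the others. Brightness depends on the probe set as well as on the transcript, so these genes are bright probe sets and their order is not one of transcript abundance. Without tumour 1 the count was 170, and without tumours 1 and 4 it was 276.

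**Figure D5:**
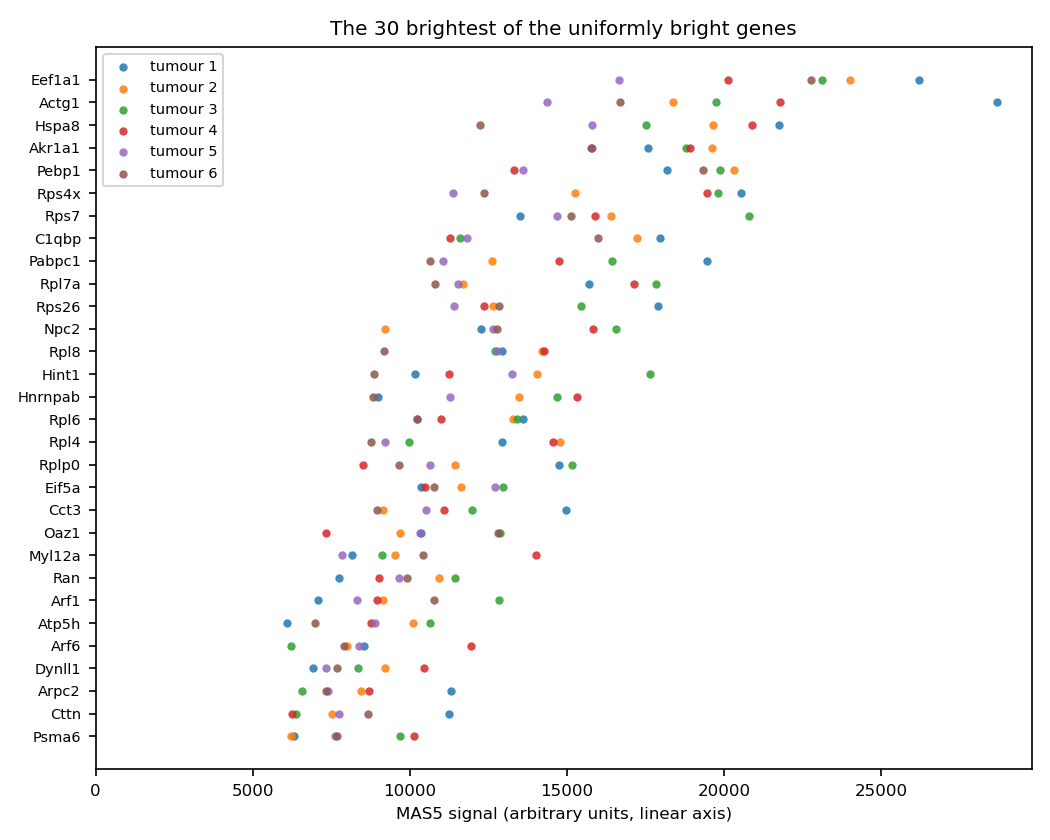
Signals of the 30 brightest of the 51 uniformly bright genes in each of the 6 tumours, on a linear axis from 0. For every gene shown the highest point is at most 2 times the lowest, as the rule requires.

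Correlations of single gene pairs asked whether genes with a known link ran in parallel over the tumours. Of 10 pairs 8 could be measured, and with 6 tumours the smallest p that an exact permutation test can give was 0.0014. By exact two-sided permutation tests, 0 of the 8 passed an adjusted p of 0.05 (Benjamini-Hochberg over the 8) and 0 an unadjusted p of 0.05, for Pearson's r as for Spearman's rho. Myog and its target Myh3 came closest, with r = 0.80 (exact permutation p = 0.056, adjusted p = 0.44, n = 6) and rho = 0.66 (exact permutation p = 0.17, adjusted p = 0.59). Without tumours 1 and 5, which lay farthest from the median of Myog, r was 0.99 over 4 tumours. Csf1r and H2-Aa, both of antigen-presenting myeloid cells, had r = 0.75 (exact permutation p = 0.13, adjusted p = 0.48) and rho = 0.54 (exact permutation p = 0.3, adjusted p = 0.59), and r was -0.19 without tumours 1 and 6, so the relation rested on those samples. Fgfr4 and Pdgfra had r = -0.49 (exact permutation p = 0.36, adjusted p = 0.48) and rho = -0.09 (exact permutation p = 0.92, adjusted p = 0.92), and r turned to 0.70 without tumours 1 and 2. The other 5 pairs, Myod1 with Fgfr4, Myog with Top2a, Csf1r with Col1a1 and with Top2a, and Slc2a1 with Vegfa, had r from -0.53 to 0.56 and, by exact permutation, adjusted p of 0.48 to 0.83. Leaving out the 2 outermost tumours moved r of Csf1r with Top2a from 0.11 to -0.81, of Myog with Top2a from -0.53 to -0.80, of Csf1r with Col1a1 from 0.47 to 0.02, of Myod1 with Fgfr4 from 0.56 to 0.31 and of Slc2a1 with Vegfa from 0.28 to -0.03. Missing the threshold with 6 samples does not show that these genes vary independently.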

How the data were processed

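Total RNA of 6 mouse tumours was profiled on Affymetrix arrays, and the authors deposited MAS5 intensities on a linear scale. Per the submitters' processing notes the tool was MAS5, and the sources used here give neither its version nor its scaling target. These intensities were used without further normalization. Precision is limited by having 6 arrays, and the spread between these samples may be technical. Any p gives only how often re-pairing the signals of the 6 tumours yields a correlation at least as strong.

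After 64 control probe sets were dropped from 22690, a single symbol was annotated for 20380, several for 691 and none for 1555. For each of 12393 genes, 4956 with several probe sets, the one brightest on average in log2(signal + 16) over the 6 tumours was kept. Identifiers of 12369 matched a table of GRCm38.p6 genes and 0 symbols differed. The spread was computed on simulated data first, in which 148 of 200 genes given an SD of 2 came out at 1.5 or above, as did 0 of 6575 genes given an SD of 0.5. Python 3.11.15, numpy 2.4.6, scipy 1.17.1, pandas 2.3.3 and matplotlib 3.10.9 were used. Of 10 gene pairs, that of Igf2 and H19 was not measured because the H19 probe set has several symbols, and 1 other pair was not analysed here.

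The members, gene lists and pairs were chosen with earlier results of these data known. Named genes were the 20 with the highest and the 12 with the lowest SD, the 12 brightest uniform genes, up to 3 of each list by highest SD (for housekeeping lists also up to 2 by lowest), both genes of each pair, the 5 closest to each group's mean and the genes beside the signal limit. Other genes, such as Acta1, Mylpf, Tfap2a, Meg3, Igf2r, Ncam1, Tnnt3, Hprt and Actb, were chosen after their values were seen. Alternatives were offsets of 1 and 64, quantile normalization, median centring, 2 other signal limits, the mean over probe sets, the median absolute deviation, Spearman's rho, stricter rules for bright genes and leaving out each tumour. Leaving out tumours 1 and 4 together was added after seeing the data.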

Additional observations from a re-analysis of the deposited data

Results flagged for a closer look

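For 183 named genes and list members, the gap between the highest or lowest tumour and its nearest neighbour was divided by the range of log2 values over the 6 tumours. A sample was far from the others where this share passed Dixon's 95% critical value for 6 samples, which chance gives in about 1 in 20 groups. It did for 18 of the 183, and for 623 of the 6975 genes above the signal limit (8.93%), of which tumour 1 set apart 358 and tumour 2 set apart 172. No cause was tested.

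Among the 18, tumour 1 was set apart in 16, high in 11 and low in 5. It was high for the muscle genes Cox6a2 (0.85, with 17312 against 215 to 434 in the others), Myl2 (0.83), Ckm (0.79), Des (0.65), Cryab (0.65) and Trdn (0.64), and for Rpl13a (0.77), Pltp (0.73), Slc12a3 (0.67), Shmt2 (0.66) and Psmb3 (0.64, with 64721 against 3934 to 10702). It was low for Rab5a (0.64), Lpl (0.64, with 141 against 899.9 to 2453), Psmb7 (0.64), Eif3c (0.64) and Pdgfra (0.63). The signals of the proteasome genes Psmb3 and Psmb7 thus parted in opposite directions on the same array. Tagln was set apart by tumour 2, where it was high (0.70), and H2-Aa by tumour 6, where it was low (0.80).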

How the results depend on the processing

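Of 95 alternative values of the 7 main results 66 stayed close to the reported one. The median SD of 0.65 was 0.56 over genes with every signal at least 250, 0.59 for the mean of probe sets, 0.48 without tumours 1 and 4, and 0.54 to 0.69 when 1 tumour was left out. The 297 genes with an SD of at least 1.5 became 160 with an offset of 64, 36 with every signal at least 250, 194 for the mean of probe sets, and 191 (without tumour 1) to 402 (without tumour 5). The 199 steady genes became 124 with a mean of at least 500, 924 by the median absolute deviation, 878 without tumours 1 and 4, and 245 to 444 when 1 tumour was left out (444 without tumour 1, 418 without tumour 2, 313 without tumour 4). The 51 uniformly bright genes became 29 in the top 2%, 8 at a ratio of at most 1.5, 276 without tumours 1 and 4, and 55 to 170 when 1 tumour was left out (170 without tumour 1, 77 without tumour 2, 78 without tumour 4). The share of parallel pairs, 10.2%, was 22.1% under median centring, 6.74% by Spearman's rho and 14.1% to 15.9% with 1 tumour left out. The first component, 49.5%, was 54.1% under median centring and 46.0% to 57.3% with 1 tumour left out. For the gene pairs, 0 of 96 values under alternatives passed the threshold (adjusted p 0.13 to 0.95). Fewer samples or genes enter the alternatives that leave some out; other causes were not tested. All 20 of the most variable genes kept an SD of at least 1.5 with offsets of 1 and 64, quantile normalization and median centring, and 16 of the 19 still above the limit did for the mean of probe sets. No paired analysis was possible because only 1 group was used. With 6 arrays, dim signals near background limit the folds of genes that are low in some tumours.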

Other observations

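Genes that mark position along the body and limb axes, most of them homeobox genes, differed between the tumours. Of 13 listed genes above the signal limit 2, Hoxc9 and Hoxa11, had an SD of at least 1.5, and after quantile normalization 0 did. Over all genes the shares were 4.26% and 4.77%. The list median was highest in tumour 1 and lowest in tumour 2 under all 3 scalings, with 7 of 13 genes highest in tumour 1 and 9 of 13 lowest in tumour 2. Over all examined genes 28.7% were highest in tumour 1 and 31.3% lowest in tumour 2. Hoxa11, a gene of the middle limb segment, had signals of 1230.3, 113, 193, 1558, 1137 and 928 in tumours 1 to 6 and was thus low in tumours 2 and 3. Hoxa9 went the other way, with 2059.8 in tumour 2 and 429 in tumour 1. Outside the list, the homeobox genes Hoxb9 and Six3 also reached 1.5, with SDs of 1.68 and 1.88, and both were highest in tumour 1 and lowest in tumour 2. Prrx1, a limb mesenchyme factor, gave 471 in tumour 1 and 1596 to 2519 in the others.

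Stress and metabolic lists had median SDs between 0.62 for cholesterol synthesis and 0.80 for heat shock genes, beside 0.65 for all genes. Over all genes 4.26% had an SD of at least 1.5, and counts of 0 or 1 in such short lists are near that share. Of 11 cholesterol synthesis genes 0 had an SD of at least 1.5, and their median was highest in tumour 2 and lowest in tumour 3 under all 3 scalings. Fdft1, which makes squalene, ran from 317 in tumour 3 to 2749.8 in tumour 2. Of 15 heat shock genes 1, Cryab, reached 1.5, and 0 did without tumour 1. Dnaja1, a co-chaperone, gave 761, 10578, 4855, 1136, 3439 and 6259, so that tumours 1 and 4 were lowest. The early response gene Fos gave 246 to 2591 with an SD of 1.17, and was highest in tumour 6. Of 20 unfolded protein and amino acid response genes 0 reached 1.5; Calr, a chaperone of the endoplasmic reticulum, gave 15117 in tumour 1 and 6896 to 7904 in the other 5.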
